A study of Mus musculus with 6 samples.

Results

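The 44 mouse collagen genes examined here are the protein-coding genes whose symbol has the form Col, number, a, number. They were taken by symbol alone from 21900 protein-coding genes on the chromosomes that the methylation tables cover. Methylation of cytosines had been profiled in 6 cultured mouse cell lines with reduced representation bisulfite sequencing, an assay that digests the genome and sequences its CpG-rich pieces. All 6 lines were of the OG2 strain, in which a green fluorescent reporter is driven by Oct4 regulatory sequence, and no other allele, agent or time point is named for any line. They were 1 germline stem cell (GSC) line, 2 independent induced pluripotent stem cell (iPSC) lines derived from GSC, 2 independent germline-derived pluripotent stem cell (gPSC) lines and 1 embryonic stem cell (ESC) line. Positions with different methylation were deposited for the 5 libraries other than ESC, which is therefore taken as the reference of all of them. The tables do not name that reference, and they hold no expression values against which the cell types could be checked.

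Collagens are secreted or membrane-bound proteins of the extracellular matrix in which 3 chains wind into a triple helix. Fibrillar collagens bear tension in bone, cartilage, skin and vessels, type IV chains form the sheets of basement membranes, and the remaining families link, anchor or decorate these networks. Their genes typically consist of many short exons spread over a long transcribed region, the gene body. In mammals the bodies of genes are usually methylated at most CpGs, whereas CpG-rich start regions are usually free of methylation.

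A position listed as hyper had a higher, and one listed as hypo a lower, share of methylated reads in the library than in its reference. Every listed position had a q-value of at most 0.01 and an absolute difference of at least 25 percentage points. Where 5 values are given in a row, they are in the order GSC, iPSC 1, iPSC 2, gPSC 1, gPSC 2. The tables held 118235 to 211853 hyper and 20470 to 43836 hypo positions per library, with the most of both in GSC. Coverage is not in the tables, so the depth behind a position is unknown and a position that is not listed may be unchanged or unmeasured. Of the listed positions in RefSeq promoter windows, 99.77% to 99.94% per table lay on the C or the G of a CG, about equally often on each. Positions 1 bp apart can therefore be the 2 strands of a single CpG.

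Collagen genes were long, with a median length of 114 kb and a range of 7.11 to 420 kb. Of the 44 genes, 26 (59.1%) were over 100 kb, against 12.1% of the 19264 protein-coding genes with a known strand, whose median length was 18.7 kb. The start region was the stretch from 2000 bp before to 500 bp after the outermost start of the gene, the body ran from there to the gene's end, and the end flank covered the following 2000 bp. These windows held 1251 distinct listed positions, counting each once over the 10 tables. All 44 bodies held at least 1 of them, and 42 held the 3 or more needed for a call. Start regions were sparser, with a listed position in 28 genes and 3 or more in 18. The density of listed body positions was 2.07 per 10 kb for the median collagen gene and 1.62 for the median of all genes. Pooled over bodies the order was the other way, at 1.96 in collagens and 2.17 in all genes, and over 150 kb the medians were 0.738 and 1.06. Length and the number of listed body positions had a Spearman correlation of 0.34 over the 44 genes and 0.63 over all genes with a strand, given here as a description, since genes share the libraries.

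Listed positions in collagen bodies were mostly hyper in all 5 libraries, which share 1 reference. In GSC 602 body positions were hyper and 35 hypo. In iPSC 1 the counts were 395 and 15, and in iPSC 2 they were 387 and 48. In gPSC 1 they were 386 and 36, and in gPSC 2 they were 434 and 6. The hyper share of collagen body positions was 94.5%, 96.3%, 89%, 91.5% and 98.6% in GSC, iPSC 1, iPSC 2, gPSC 1 and gPSC 2. Over the bodies of all protein-coding genes it was 85.9%, 82.5%, 78.8%, 82.8% and 88.6%, in the same order, lower than the collagen value in each library. The median difference of hyper positions in collagen bodies was 65.7, 50.8, 58.5, 57.5 and 50.1 points, close to the 65.5, 49.0, 56.1, 56.1 and 49.8 points over all gene bodies. The few hypo positions had medians of -44.3, -50.0, -73.2, -40.4 and -75.7 points, against -48.2, -42.2, -55.8, -44.9 and -43.4 over all gene bodies. Hyper differences were thus near those of other genes in size. Hypo differences were larger than those of other genes in iPSC 1, iPSC 2 and gPSC 2, over 15, 48 and 6 positions, and smaller in GSC and gPSC 1.

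Start regions of collagen genes were mixed. They held 62 hyper and 32 hypo positions in GSC, 36 and 22 in iPSC 1, 35 and 22 in iPSC 2, 57 and 36 in gPSC 1, and 33 and 20 in gPSC 2. The hyper share was 61.3% to 66% over the 5 libraries, against 47.6% to 54.1% in the start regions of all genes. End flanks held 2 to 5 hyper and no hypo positions per library, too few to describe further.

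**Figure D1:**
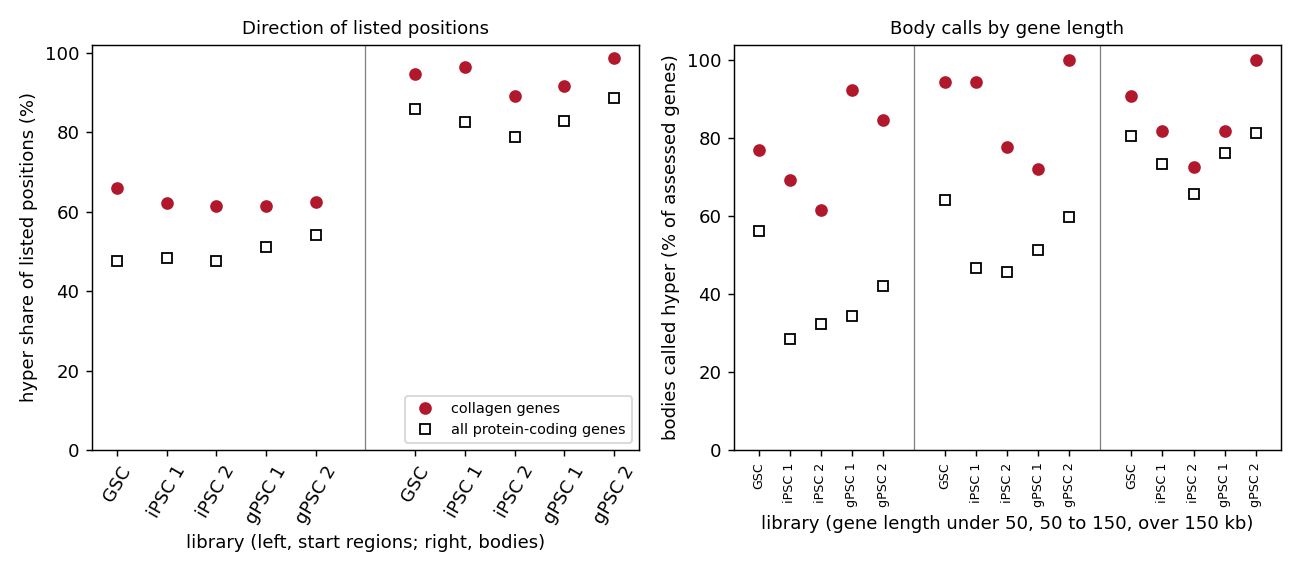
Left, the percentage of listed positions that were hyper (y axis) in start regions and in bodies of the 44 collagen genes (filled circles) and of all protein-coding genes (open squares), by library (x axis). Right, the percentage of assessed bodies called hyper by library and gene length, with the same symbols. Collagen values lie above those of all genes throughout, and on the right the gap is narrowest over 150 kb.

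For a body to be called hyper or hypo, 3 or more of its listed positions and no less than 80% of them had to have that direction. In GSC 37 of the 42 assessed collagen bodies (88.1%) were called hyper, against 61.3% of 11218 assessed bodies of all genes. The count was 35 (83.3%, background 38.7%) in iPSC 1 and 30 (71.4%, background 39.9%) in iPSC 2. It was 34 (81%, background 44.0%) in gPSC 1 and 40 (95.2%, background 51.5%) in gPSC 2. No collagen body was called hypo in any library, where the background was 1.43% in GSC, 1.13% and 1.47% in iPSC 1 and 2, and 0.811% and 0.642% in gPSC 1 and 2. With 42 bodies, such backgrounds correspond to fewer than 1 gene, so nothing is read from their absence. In gPSC 2 the 2 assessed bodies without a call were Col1a2, with no listed position there, and Col6a2, with 1.

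The gap to other genes was narrower for the longest genes. Among collagen genes under 50 kb, 10 of 13 assessed bodies (76.9%) were called hyper in GSC against 56.2% of all assessed bodies of that length. The same class gave 69.2% against 28.4% in iPSC 1, 61.5% against 32.3% in iPSC 2, 92.3% against 34.5% in gPSC 1 and 84.6% against 42.0% in gPSC 2. From 50 to 150 kb the shares were 94.4% against 64.2%, 94.4% against 46.6%, 77.8% against 45.6%, 72.2% against 51.2% and 100% against 59.7%. Over 150 kb the shares of the 11 collagen genes lay nearer to those of all genes, at 90.9% against 80.5%, 81.8% against 73.4%, 72.7% against 65.7%, 81.8% against 76.2% and 100% against 81.3%. Counted over positions, the hyper share in genes over 150 kb was even lower in collagens than in all genes in GSC, at 88.1% against 89.8%, and in iPSC 2, at 83.7% against 84.3%. The number of listed positions also differed by class. The median assessed body under 50 kb held 13 listed positions in collagens and 9 in all genes. From 50 to 150 kb it held 25 and 14, and over 150 kb it held 18 and 31.5. The part of these numbers in the difference was not tested.

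**Figure D2:**
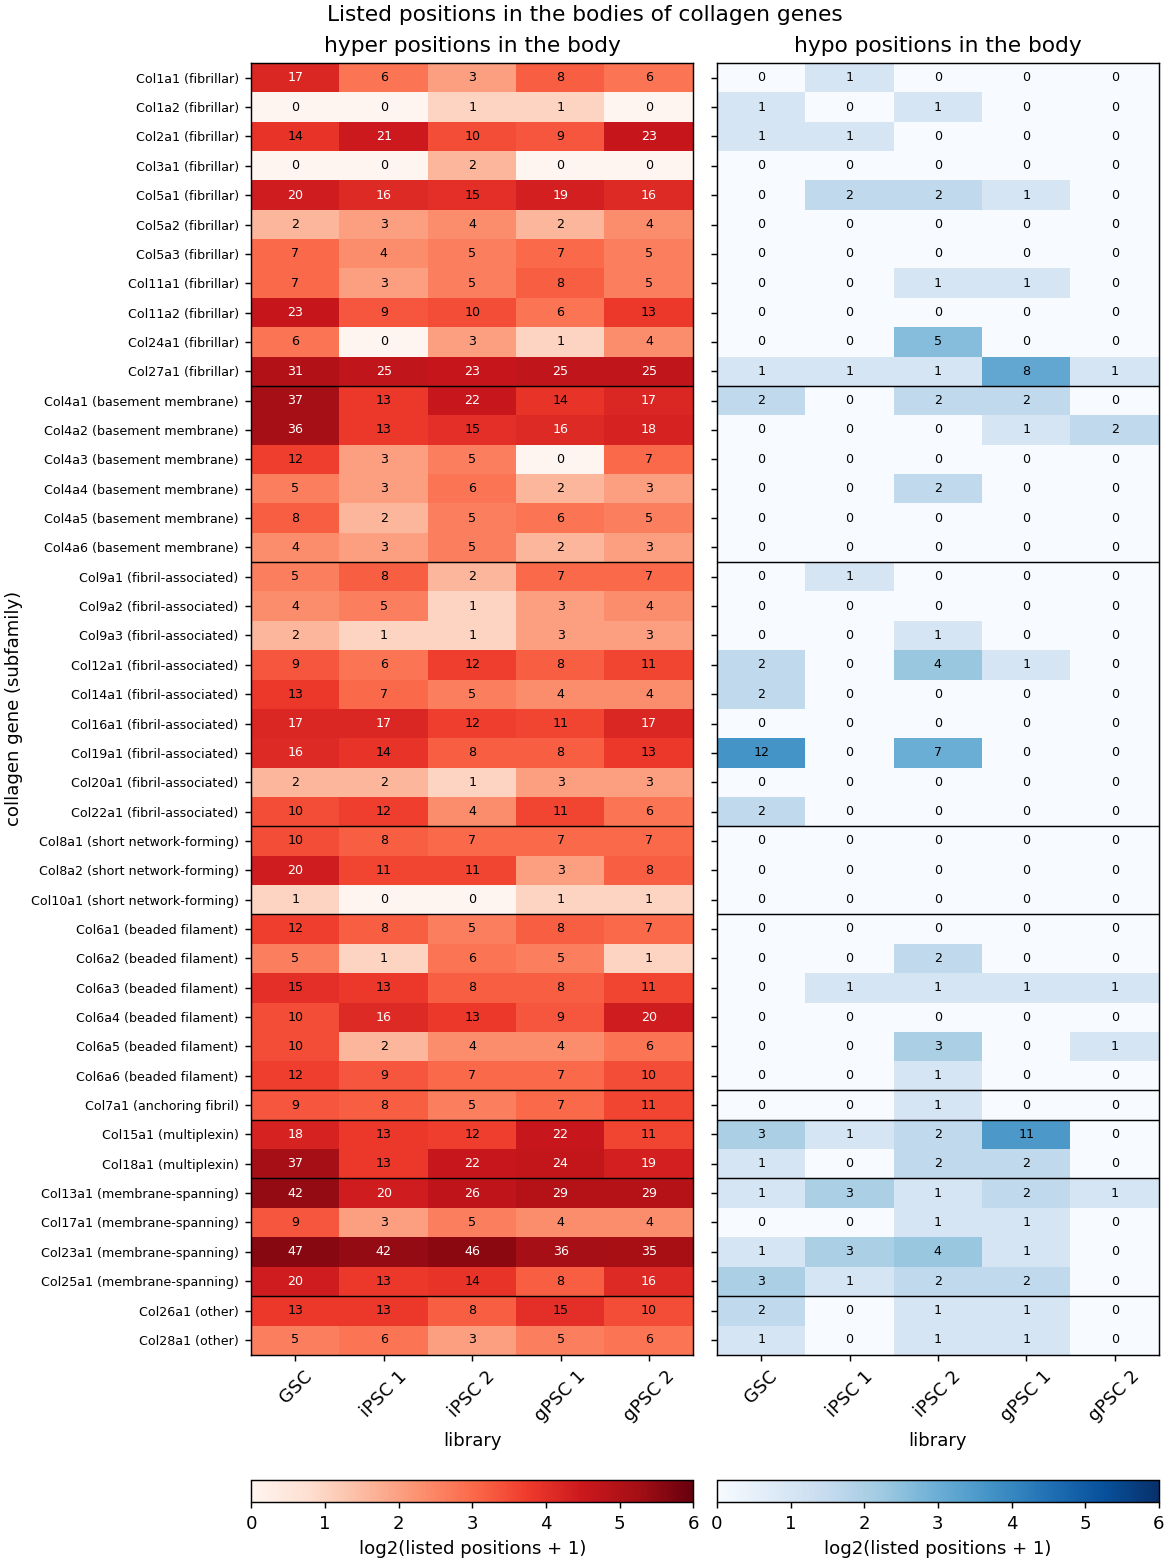
Number of hyper (left) and hypo (right) positions listed in the body of each collagen gene (rows, grouped by subfamily) in each of the 5 libraries (columns), with colour on a log2 scale of the count plus 1. Hyper counts are highest in Col23a1, Col13a1, Col4a1 and Col18a1, and hypo counts reach 8 or more in Col19a1 (GSC), Col15a1 and Col27a1 (both gPSC 1) alone.

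Fibrillar collagens assemble into the fibres of bone, cartilage, skin and vessel walls, and 10 of the 11 genes had an assessed body. Of these, 8, 8, 8, 6 and 9 were called hyper (80%, 80%, 80%, 60% and 90%), against 61.3%, 38.7%, 39.9%, 44.0% and 51.5% of all assessed bodies. Col27a1, a collagen of cartilage (chr4:63214009-63334991, plus strand), had the most listed positions, with 31 hyper and 1 hypo in GSC, 25 and 1 in iPSC 1, 23 and 1 in iPSC 2, 25 and 8 in gPSC 1, and 25 and 1 in gPSC 2. Its 8 hypo positions in gPSC 1 were more than in any other library, and they kept the gene from a hyper call there. Col5a1, which sets the diameter of type I fibrils (chr2:27886381-28039510, plus strand), had 20, 16, 15, 19 and 16 hyper and at most 2 hypo positions, a narrow spread over the libraries. Col2a1, the main cartilage collagen (chr15:97975602-98004724, minus strand), had 14 hyper positions in GSC, 21 and 10 in iPSC 1 and 2, and 9 and 23 in gPSC 1 and 2. Its highest count was in gPSC 2 and its lowest in gPSC 1, so the 2 gPSC lines enclosed both iPSC lines.

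The remaining fibrillar genes had fewer positions. Col1a1, which encodes the chain present as 2 copies in type I collagen, had 17, 6, 3, 8 and 6 hyper positions in GSC, iPSC 1, iPSC 2, gPSC 1 and gPSC 2, and its partner Col1a2 had 0, 0, 1, 1 and 0, with 1 hypo position each in GSC and iPSC 2. The pair was listed very unequally, at 11.0 and 1.13 listed positions per 10 kb of body over all tables. Col3a1, which forms fibrils with type I in skin and vessels, had 2 listed positions, both in iPSC 2, and could not be called. Col24a1 had 6 hyper and no hypo positions in GSC, none at all in iPSC 1, 3 hyper and 5 hypo in iPSC 2, 1 hyper in gPSC 1 and 4 hyper in gPSC 2. Its body mean was 98.1 points in GSC and -17.0 in iPSC 2, so the sign of the mean differed between these 2 libraries. Col5a2, Col5a3, Col11a1 and Col11a2 had between 2 and 23 hyper and at most 1 hypo position in every library.

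Basement membrane collagens are the 6 chains of type IV, encoded in 3 head-to-head pairs that share a start region. Of the 6 bodies 6, 5, 5, 3 and 6 were called hyper (100%, 83.3%, 83.3%, 50% and 100%), with shares over all genes of 61.3%, 38.7%, 39.9%, 44.0% and 51.5%, so the gPSC 1 count was near that of all genes. Col4a1 (chr8:11198423-11312889, minus strand) and Col4a2 (chr8:11312805-11449287, plus strand) encode the chains found in nearly all basement membranes. The Col4a1 body had 37 hyper positions in GSC, 13 and 22 in iPSC 1 and 2, and 14 and 17 in gPSC 1 and 2, with at most 2 hypo. The Col4a2 body had 36, 13, 15, 16 and 18 hyper positions and at most 2 hypo. For both genes the GSC count stood above all 4 pluripotent lines, with 1 GSC library and no test. The same held over all gene bodies, with 105744 hyper positions in GSC and 53718 to 66334 in the pluripotent lines. Col4a3 and Col4a4, chains of the kidney filter, had fewer positions, and the Col4a3 body had 12 hyper positions in GSC, 3, 5 and 7 in iPSC 1, iPSC 2 and gPSC 2, and none in gPSC 1. The X-linked pair Col4a5 and Col4a6 had 2 to 8 hyper and no hypo positions per library. These 2 bodies had the lowest densities of listed positions among the 44 genes, at 0.422 and 0.195 per 10 kb.

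Fibril-associated collagens bind to the surface of fibrils through interrupted helices, and all 9 bodies were assessed. Hyper calls numbered 6, 7, 3, 9 and 9 (66.7%, 77.8%, 33.3%, 100% and 100%), where all genes gave 61.3%, 38.7%, 39.9%, 44.0% and 51.5%. The GSC share was near that of all genes and the iPSC 2 share below it. Col16a1, found in cartilage and skin (chr4:130047817-130099277, plus strand), had 17, 17, 12, 11 and 17 hyper and no hypo positions. Col19a1 (chr1:24257683-24587922, minus strand) had 16 hyper and 12 hypo positions in GSC, 14 and 0 in iPSC 1, 8 and 7 in iPSC 2, 8 and 0 in gPSC 1, and 13 and 0 in gPSC 2. Col19a1 was therefore not called in GSC and iPSC 2, and its body mean was 12.1 and -0.4 points there against 48.9 to 64.5 in the other libraries. Col12a1 had 4 hypo beside 12 hyper positions in iPSC 2, and Col14a1 had 13, 7, 5, 4 and 4 hyper positions. Col9a1, Col9a2, Col9a3, Col20a1 and Col22a1 had 1 to 12 hyper and at most 2 hypo positions per library.

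Short network-forming collagens build hexagonal lattices in the eye and in growth cartilage. Col8a2, a collagen of the cornea (chr4:126286794-126314330, plus strand), had 20, 11, 11, 3 and 8 hyper positions in the body in GSC, iPSC 1, iPSC 2, gPSC 1 and gPSC 2 and no hypo. Its partner Col8a1 (chr16:57624256-57754737, minus strand) had 10, 8, 7, 7 and 7. Both were called hyper in all 5 libraries, where 38.7% to 61.3% of all assessed bodies were called in any single library. Col10a1, the marker of hypertrophic cartilage and the shortest member, had 1 listed body position in GSC, gPSC 1 and gPSC 2 and none in the iPSC lines.

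Beaded-filament collagens are the type VI chains, which form microfibrils around cells, and all 6 bodies were assessed. They were called hyper in 6, 4, 4, 6 and 5 cases (100%, 66.7%, 66.7%, 100% and 83.3%, beside 61.3%, 38.7%, 39.9%, 44.0% and 51.5% over all genes). Col6a4 (chr9:105990318-106096828, minus strand) had 10, 16, 13, 9 and 20 hyper and no hypo positions, with its lowest and highest counts in the 2 gPSC lines. Col6a3 (chr1:90766860-90844001, minus strand) had 15, 13, 8, 8 and 11 hyper positions and 0 or 1 hypo. Col6a1, Col6a2, Col6a5 and Col6a6 had 1 to 12 hyper positions, and the 2 with the most hypo positions were Col6a5, with 3, and Col6a2, with 2, both in iPSC 2.

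Col7a1, the anchoring fibril collagen that fastens the epidermis (chr9:108953586-108984875, plus strand), had 9, 8, 5, 7 and 11 hyper positions and a single hypo position, in iPSC 2. It was called hyper in all 5 libraries, beside 38.7% to 61.3% of all assessed bodies in any single library. The multiplexins Col15a1 and Col18a1 lie in basement membrane zones and release antiangiogenic fragments. Col18a1 (chr10:77052178-77166530, minus strand) had 37, 13, 22, 24 and 19 hyper and at most 2 hypo positions. Col15a1 (chr4:47207655-47313167, plus strand) had 18 hyper and 3 hypo in GSC, 13 and 1 in iPSC 1, 12 and 2 in iPSC 2, 22 and 11 in gPSC 1, and 11 and 0 in gPSC 2. It was called in every library but gPSC 1, the library with its most hyper and its most hypo positions.

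Membrane-spanning collagens carry their helix outside the cell on a transmembrane anchor, and all 4 bodies were called hyper in all 5 libraries. Over all genes, 38.7% to 61.3% of assessed bodies per library were called hyper. Among genes over 150 kb, a class that includes Col23a1 and Col25a1, the share was 65.7% to 81.3%. Col23a1 (chr11:51289679-51583925, plus strand) had more listed body positions than any other member, with 47 hyper and 1 hypo in GSC, 42 and 3 in iPSC 1, 46 and 4 in iPSC 2, 36 and 1 in gPSC 1, and 35 and 0 in gPSC 2. Col13a1, a collagen of cell contacts and the neuromuscular junction (chr10:61838234-61979206, minus strand), had 42, 20, 26, 29 and 29 hyper and 1 to 3 hypo positions. Col25a1, the longest member at 419.5 kb (chr3:130180358-130599884, plus strand), had 20, 13, 14, 8 and 16 hyper and at most 3 hypo positions. Col23a1 differed little between GSC and the iPSC lines, whereas Col13a1 was highest in GSC, as was the hyper count over all gene bodies. Col17a1, which anchors epidermal cells, had 9, 3, 5, 4 and 4 hyper positions. Of the 2 members outside these families, Col26a1 (chr5:136741759-136883376, minus strand) had 13, 13, 8, 15 and 10 hyper positions, and Col28a1 (chr6:7997100-8193709, minus strand) had 5, 6, 3, 5 and 6.

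Hyper positions lay all along the collagen bodies. Per library, 27.1% to 35.5% of them fell in the first of 3 equal parts of the gene, 28.9% to 33.4% in the middle one and 34.7% to 40.5% in the last, and the ranges over all genes were 31.6% to 33.9%, 28.5% to 29.4% and 37.2% to 39.2%. The hyper share was lower near the start. Between 501 and 3000 bp from the start it was 71.4% in GSC, 88.9% and 61.1% in iPSC 1 and 2, and 64.6% and 92.0% in gPSC 1 and 2. Beyond 3000 bp it was 97.4%, 96.7%, 91.5%, 96.4% and 99.0%. The shares nearer the start rested on 2 hypo positions each in iPSC 1 and gPSC 2. Other genes showed the same order. Over all genes, 11% to 13.6% of hyper but 38.2% to 54.9% of hypo body positions per library lay within 3000 bp of the start. The deposited annotation column marked 97.3% of listings in plus-strand bodies but 14% of those in minus-strand bodies. For the 8 members whose strand was taken from this column, the contrast follows from that choice. In plus-strand members 14.2% to 19.1% of hyper body positions per library were marked exon alone and 44.9% to 52.9% intron alone. The rest were marked exon and intron together, promoter with or without these, or not at all.

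The hypo positions near the starts came from a few short stretches, described here because they hold most of them and chosen after their values were seen. In Col19a1, 12 hypo positions from 1172 to 1248 bp after the start in GSC each had a hyper position 1 bp away. Their means were -41.7 and 43.5 points, and in iPSC 2 the same stretch held 6 hypo positions with a mean of -63.0 and no hyper. The other 3 libraries had no listed position in that stretch. In Col27a1, gPSC 1 had 7 hypo positions from 1825 to 1858 bp, each beside a hyper position, with means of -74.8 and 75.8 points, where no other library had any. The RefSeq promoter start of Col27a1 lies 1403 bp after the outermost start used here, so this stretch is close behind it. A further Col27a1 pair at 1468 and 1469 bp was hypo and hyper in 4 libraries, at -39.4 and 41.4 points in GSC. In iPSC 1, iPSC 2 and gPSC 1 the hypo values were -73.2, -70.4 and -67.6 points and the hyper values 79.4, 68.0 and 67.8. In gPSC 2 the hypo position alone was listed.

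Col15a1 showed both patterns side by side. Its 8 positions from 685 to 800 bp after the start were hyper in all 5 libraries, with means of 31.1, 39.9, 32.5, 40.5 and 40.1 points in GSC, iPSC 1, iPSC 2, gPSC 1 and gPSC 2. In gPSC 1 the next stretch, from 810 to 911 bp, held 12 hyper and 11 hypo positions, and each hypo position had a hyper one beside it, with means of 37.6 and -37.7 points. GSC had 1 hyper and 3 hypo positions from 869 to 923 bp, each iPSC line had 1 hypo at 911 bp, and gPSC 2 had none in either span.

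Over all collagen windows, many hypo positions had a hyper position 1 bp away in the same library. This held for 35 of 67 hypo positions in GSC (52.2%), 19 of 37 in iPSC 1 (51.4%), 13 of 70 in iPSC 2 (18.6%), 36 of 72 in gPSC 1 (50%) and 11 of 26 in gPSC 2 (42.3%). Of the hyper positions, 2.55% to 8.09% per library had such a neighbour. Most of these adjacent opposite values cancelled, with a sum within 5 points of 0 in 29 of 40 pairs in GSC, 18 of 23 in iPSC 1, 14 of 15 in iPSC 2, 34 of 43 in gPSC 1 and 12 of 14 in gPSC 2. The tables give neither strand nor reads, so the source of these pairs was not tested.

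Start regions were called by the same rule. In GSC 6 of the 18 assessed collagen start regions were called hyper (33.3%, background 13.0% of 6426) and none hypo (background 12.2%). In iPSC 1 the counts were 1 (background 6.15%) and 0 (background 4.39%). In iPSC 2 they were 3 (background 6.40%) and 2 (background 6.89%), and in gPSC 1 they were 4 (background 7.69%) and 2 (background 4.58%). In gPSC 2 they were 1 (background 8.28%) and 0 (background 4.03%). Counts of 1 to 6 among 18 genes leave little to read from these shares, and both genes of a type IV pair count although they share 1 set of positions.

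**Figure D3:**
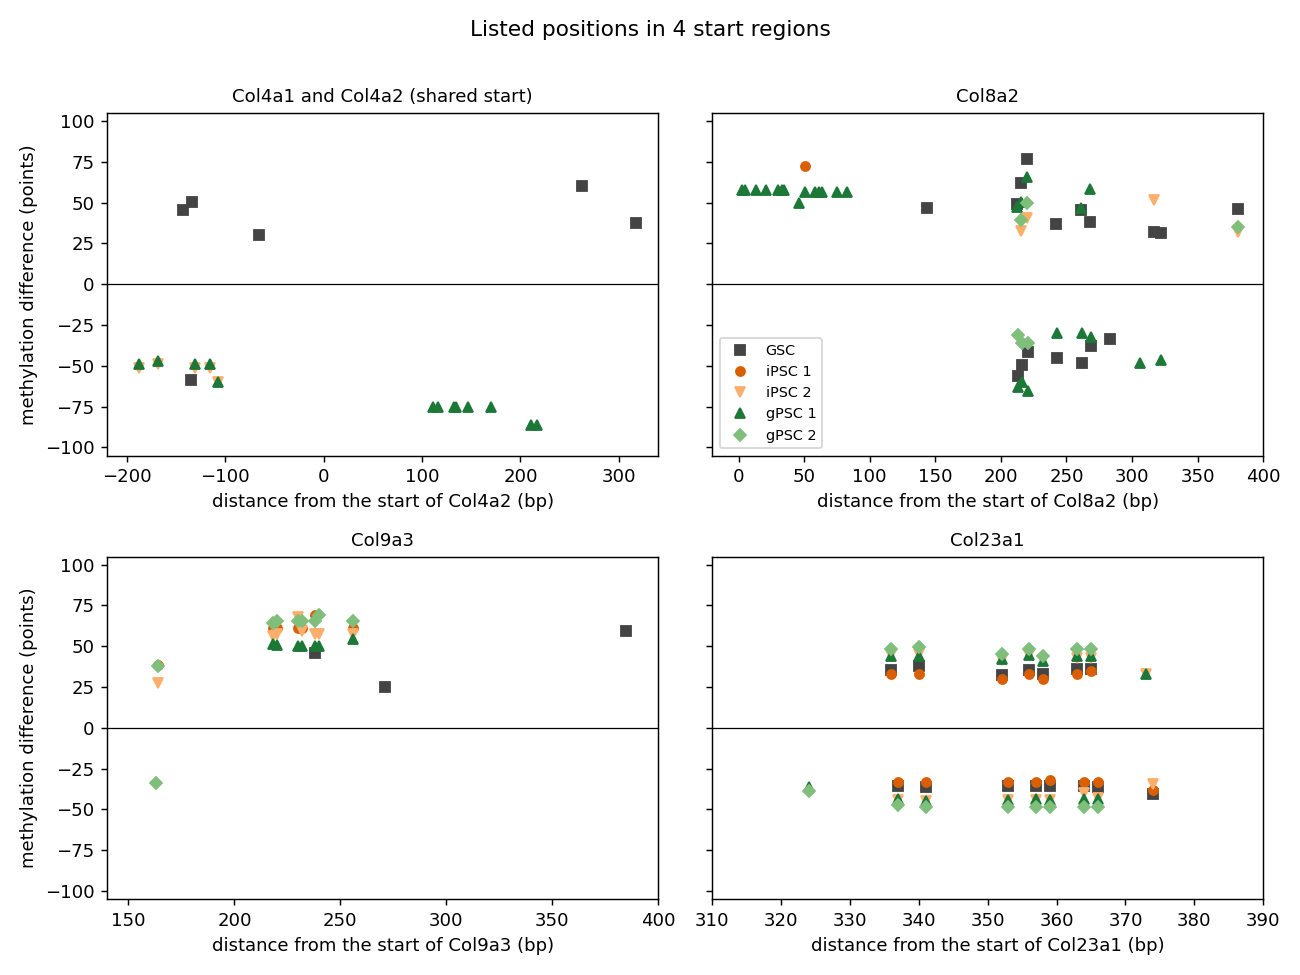
Methylation difference of each listed position against the reference (y axis, percentage points) by distance from the gene's outermost start (x axis, bp) for the shared Col4a1 and Col4a2 start and the starts of Col8a2, Col9a3 and Col23a1, with 1 symbol per library. Col9a3 is hyper in all 4 pluripotent lines, Col23a1 has mirrored hyper and hypo values in all 5 libraries, and the Col4a1 and Col4a2 start is hypo in iPSC 2 and gPSC 1.

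Col4a1 and Col4a2 had the start region that differed most between libraries. It held 5 hyper and 1 hypo position in GSC, none in iPSC 1, 0 hyper and 5 hypo in iPSC 2, 0 hyper and 13 hypo in gPSC 1 and none in gPSC 2. The mean differences were 27.5 points in GSC, -52.4 in iPSC 2 and -67.4 in gPSC 1. The 5 hypo positions of iPSC 2, from 188 to 107 bp before the Col4a2 start, were also hypo in gPSC 1, with means of -52.4 and -50.8 points. The other 8 of gPSC 1 lay from 111 to 217 bp after the Col4a2 start, inside the Col4a2 span and upstream of the Col4a1 start, with values of -75.0 to -86.3 points. In both kinds, 1 line had listed positions here and the other had none, which may mean unchanged or unmeasured. The stretches with the most listed CGs in this region are shown because they carry this difference, from RefSeq promoter windows of GRCm38.p6, read 5′ to 3′ on the strand of the gene named, with capitals marking each CG that holds a listed position. The Col4a1 stretch is chr8:11312915-11312944 on the minus strand and the Col4a2 stretch is chr8:11312661-11312690 on the plus strand.
Col4a1 stretch: cggggCGCGggaggagctgggtgCGgagCG
Col4a2 stretch: CGtgggccaCGgCGaggtgctcagtctCGg
The 4 marked CGs of the Col4a1 stretch belong to the 8 positions listed in gPSC 1 alone. Of the 5 listed positions in the Col4a2 stretch, 2 were hypo in iPSC 2 and gPSC 1 and the other 3 were listed in GSC.

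Col9a3, a chain of the type IX collagen of cartilage (chr2:180598102-180622192, plus strand), was called hyper at its start in all 5 libraries. It had 3 hyper positions in GSC, 7 and 8 in iPSC 1 and 2, and 7 and 8 in gPSC 1 and 2, and 1 hypo, in gPSC 2. The mean differences were 43.4, 59.4, 55.2, 51.0 and 51.7 points. In the 4 pluripotent lines the hyper positions lay from 164 to 256 bp after the start, and 1 of the 3 GSC positions, at 238 bp, was among them. Col20a1, a collagen of the same fibril-associated group (chr2:180983323-181017545, plus strand), had 5, 2, 3, 6 and 2 hyper and no hypo positions, all from 1303 to 1181 bp before its outermost start, which itself lies 3212 bp ahead of its RefSeq promoter start.

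Col23a1 had listed positions in its start region in every library, with 7 hyper and 8 hypo in GSC, iPSC 1 and gPSC 2, and 8 and 8 in iPSC 2 and gPSC 1. They lay from 324 to 374 bp after the start. The hyper means were 35.3, 32.5, 42.0, 42.1 and 47.4 points and the hypo means -36.5, -33.6, -42.5, -42.9 and -47.0. All but 1 or none of the hypo positions per library had a hyper neighbour 1 bp away, so the mean over the region was -3.0 to -0.2 points and no library was called. Col26a1 had 5 hyper and 5 hypo positions from 350 to 422 bp after the start in iPSC 1, where gPSC 2 had 1 of each and the other libraries none, and at 695 bp before the start a single position was hyper in all 5 libraries.

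Col8a2 had 10 hyper and 7 hypo start positions in GSC, 1 and 0 in iPSC 1, 4 and 0 in iPSC 2, 19 and 8 in gPSC 1, and 3 and 3 in gPSC 2. In gPSC 1, 14 hyper positions from 3 to 83 bp after the start had a mean of 56.5 points and a range of 49.9 to 57.6, and of the other libraries iPSC 1 alone had a position there, at 72.2 points. From 212 to 322 bp, GSC had 8 hyper and 7 hypo positions and gPSC 1 had 5 and 8. The stretch of 30 bases with the most listed CGs, chr4:126286796-126286825 on the plus strand, holds 5 of the gPSC 1 positions, each at 57.6 points.
Col8a2 stretch: gCGCGgggcagCGgggcagCGggcagagCG

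GSC alone had start calls for Col7a1 and Col11a2. The 4 positions of Col7a1, from 20 to 168 bp after the start, had a mean difference of 57.4 points in GSC and were listed in no other library. Those at 20, 23 and 44 bp fall in the stretch chr9:108953602-108953631 on the plus strand.
Col7a1 stretch: gctgCGgCGcgggagcaggctgactcctCG
Col11a2, a cartilage fibril chain (chr17:34038919-34066684, plus strand), had 12 hyper positions in GSC from 387 to 239 bp before its start, with a mean of 44.0 points, and 1 hypo. In the other libraries its start region held at most 1 hyper and 2 hypo positions. In the start region shared by Col4a3 and Col4a4, GSC had 3 hyper and 5 hypo positions, iPSC 2 had 2 hyper and gPSC 1 had 3 hyper, and the remaining lines had none.

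The remaining start regions with 3 or more listed positions in a library differed little between libraries or were thinly listed. Col5a1 had a hypo position at 431 bp after the start in all 5 libraries, from -38.4 to -49.5 points. Col13a1 had 0 or 1 hyper and 1 or 2 hypo positions, Col25a1 0 to 2 hyper and 0 or 1 hypo, and Col11a1 3 hyper and 2 hypo in iPSC 1 with at most 1 listed elsewhere. Col9a2, another type IX chain (chr4:121039566-121055325, plus strand), had none in GSC, 1 hyper and 1 hypo in iPSC 1, 1 and 3 in iPSC 2, 2 and 1 in gPSC 1, and 1 and 0 in gPSC 2. Its upstream bases are shown as an example of a collagen promoter in which each listed CG lies within CCGG, the site cut by MspI, the enzyme usual for this assay. This is not general, since no marked CG of the Col4a1, Col4a2, Col7a1 and Col8a2 stretches above lies within CCGG. The window is chr4:121039316-121039565 on the plus strand, and 2 of its 9 CGs carry a listed position.
Col9a2 upstream: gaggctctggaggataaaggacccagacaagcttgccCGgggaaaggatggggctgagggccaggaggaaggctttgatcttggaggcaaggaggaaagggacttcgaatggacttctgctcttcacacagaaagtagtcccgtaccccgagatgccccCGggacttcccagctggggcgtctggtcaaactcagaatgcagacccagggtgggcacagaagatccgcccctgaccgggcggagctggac
RefSeq promoter windows were found for 35 of the 44 genes, as 38 windows of 300 bases. The median number of CGs was 11.5 in these and 7.0 over 32851 windows of all genes, and the letters CCGG, which read the same on both strands, occurred in 60.5% and 52.8%.

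Since the lines are independent of each other, iPSC and gPSC were compared as 2 lines against 2, where a two-sided exact permutation test cannot give a p below 0.333. Collagen bodies held 395 and 387 hyper positions in iPSC 1 and 2 and 386 and 434 in gPSC 1 and 2. The means were 391.0 ± 5.66 and 410.0 ± 33.9 (SD, n = 2 each), a difference of -19.0 that was smaller than the spread between the gPSC lines (exact permutation p = 1). Hypo positions numbered 15 and 48 against 36 and 6, with means of 31.5 ± 23.3 and 21.0 ± 21.2 and a difference of 10.5 (exact permutation p = 0.667). For hypo positions the lines of each kind were further apart than the means of the kinds. Without gPSC 2 the hyper difference was 5.0, and the hypo difference was -4.5 without gPSC 2 and -6.0 without iPSC 2. In start regions the difference was -9.5 for hyper and -6.0 for hypo positions (exact permutation p = 1 for each).

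**Figure D4:**
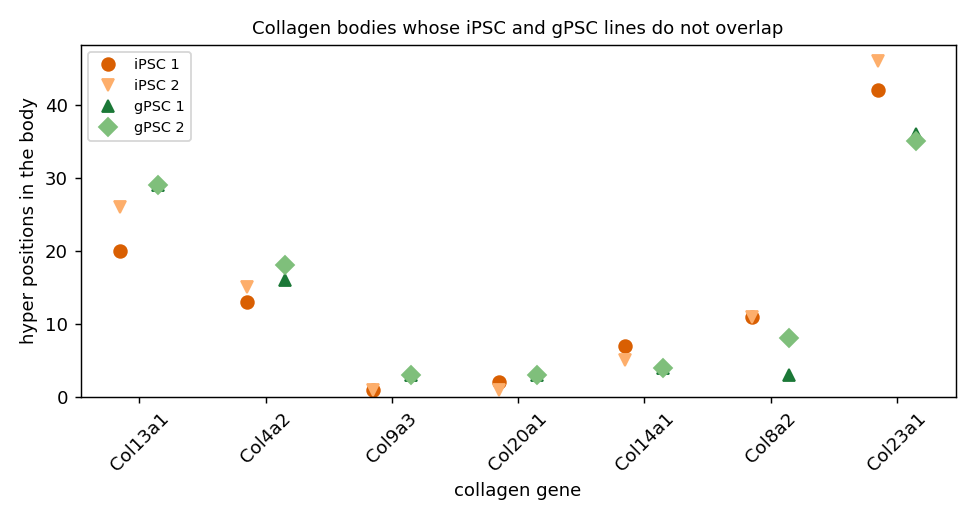
Hyper positions in the body (y axis) for each collagen gene whose iPSC and gPSC lines did not overlap (x axis), 1 point per line. Col23a1, Col8a2 and Col14a1 have more in both iPSC lines, and Col13a1, Col4a2, Col9a3 and Col20a1 more in both gPSC lines.

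A few bodies had counts that did not overlap between the 2 kinds of line. Both iPSC lines lay above both gPSC lines in 3 of 42 assessed bodies (7.14%), against a background of 4.04% of all assessed bodies. They were Col23a1 with 42 and 46 against 36 and 35 hyper positions, Col8a2 with 11 and 11 against 3 and 8, and Col14a1 with 7 and 5 against 4 and 4. Both gPSC lines lay above in 4 bodies (9.52%, background 12.7%), namely Col13a1 with 20 and 26 against 29 and 29, Col4a2 with 13 and 15 against 16 and 18, and Col9a3 and Col20a1 with at most 3 positions. For hypo positions, the iPSC lines lay above in Col23a1 and Col5a1 (4.76%, background 6.56%) and the gPSC lines in Col4a2 (2.38%, background 2.31%). These shares lay near the background, and no gene is set apart by them.

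Of 39 genes that modify, process, cross-link, bind or cleave collagens, 36 had a known strand, 30 an assessed body and 17 an assessed start region. Their bodies were called hyper in 22 cases in GSC (73.3%), 16 and 17 in iPSC 1 and 2 (53.3% and 56.7%), and 14 and 19 in gPSC 1 and 2 (46.7% and 63.3%). Over all genes the shares were 61.3%, 38.7%, 39.9%, 44.0% and 51.5%, so that of gPSC 1 was near the background, and the collagen shares were higher in each library. The 1 hypo call among the 30 assessed bodies was P4ha1, a subunit of the collagen prolyl hydroxylase, in GSC, with 3 hypo positions. Its share was 3.33% against a background of 1.43%, and nothing is read from a single call. Fkbp10, a collagen chaperone without a known strand and therefore not assessed, had 3 hypo and no hyper positions in gPSC 1. Start regions called hyper numbered 4, 3, 2, 3 and 3 of the 17 assessed (23.5%, 17.6%, 11.8%, 17.6% and 17.6%), against 13.0%, 6.15%, 6.40%, 7.69% and 8.28% over all genes, and Colgalt2 and Bmp1 were among them in all 5. Colgalt2, which adds galactose to collagen hydroxylysines, had 10 hyper and no hypo start positions in every library. Bmp1, the protease that removes the C-terminal propeptide, had 10, 8, 9, 3 and 9. Start regions called hypo were those of P4ha1, Adamts3 and Itgb1, all in GSC (17.6%, background 12.2%), with 4, 4 and 7 hypo positions, genes named because they are the only ones.

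Of the 39 genes, those with the most listed positions were proteases, receptors and hydroxylases. Adamts2, which cuts the N-terminal propeptide of fibrillar collagens, had 43 hyper and 10 hypo body positions in GSC, 30 and 2 in iPSC 1, 25 and 1 in iPSC 2, 27 and 1 in gPSC 1, and 37 and 2 in gPSC 2. Adamts14, a relative of it, had 40, 9, 12, 14 and 10 hyper and 0, 4, 1, 1 and 0 hypo positions. Of the receptors, the integrin chain Itga1 had 21, 10, 11, 14 and 10 hyper and 1, 1, 7, 0 and 1 hypo positions. Itga11 had 17, 10, 9, 7 and 14 hyper and at most 2 hypo. Itga10 had 14, 6, 10, 9 and 5 hyper and at most 1 hypo. The receptor kinase Ddr1 had 25, 6, 4, 12 and 7 hyper and 6, 3, 1, 7 and 1 hypo. The lysyl hydroxylases Plod2 and Plod3 had 11, 9, 5, 6 and 7 and 9, 4, 5, 5 and 9 hyper positions, with at most 2 hypo. Adamts14 and Ddr1 were not called in iPSC 1, Itga1 and Plod3 not in iPSC 2, and Itga11 and Ddr1 not in gPSC 1. The highest hyper count of each of these genes was in GSC, for Plod3 together with gPSC 2. GSC also had the most hyper positions over all gene bodies.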

How the data were processed

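DNA methylation was measured in 6 cell lines and tables were deposited for 5. Bismark, Bowtie2, GATK and methylKit are listed in the submitters' processing notes, as are the builds GRCm38 and mm10. How reads were aligned, which coverage was required and whether strands were merged is not given in the sources used here. For each listed position the authors deposited a p-value, a q-value and a methylation difference in percent points. Tested on the tables, no q exceeded 0.01 and no absolute difference was below 25 points. Coverage and levels are not in the tables, so depth and intervals are not given.

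Gene spans came from a GRCm38.p6 gene table. Strands came from RefSeq promoter windows for 35 members, from the deposited feature column for 8 and from textbooks for 1 (Col5a2). Where both first sources existed they gave the same strand in 29 of 31 members and in 89.8% of 6741 genes. Positions were counted per library, direction and region, and collagen totals count a position shared by a pair of genes once. Totals over all genes count a position once for each gene that holds it. In GSC they gave 106887 hyper body positions, of which 105744 were distinct. A call needed 3 positions and 80% of one direction, and a region was assessed with 3 positions in any table. Counts over lines were compared with an exact permutation test in Python 3.11.15, with numpy 2.4.6, pandas 2.3.3 and scipy 1.17.1, and figures were drawn with matplotlib 3.10.9. Counting and calling were tested on simulated data.

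Named members are the 10 with the most listed body positions, up to 15 with 3 or more start positions in a library, the 2 richest of each subfamily and those whose lines do not overlap. For the 39 pathway genes, the 10 called genes with the most listed positions are named. The members and lists were chosen with earlier results of these data known. Subfamilies and pathway genes follow textbook knowledge. Line numbers name independent lines, so no pairing was used.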

Additional observations from a re-analysis of the deposited data

How the results depend on the processing

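Over 19 other settings, 92 of 115 recomputed counts of calls stayed within 1.5 times the value reported and 23 moved. Of 30 recomputed differences between iPSC and gPSC lines, 26 kept their sign, among them those with replicate blocks, which cannot change a mean. In 4 the sign turned, and the size of the differences was not stable. With all lines kept, that of hyper positions ranged from -35.0 to -7.0 around -19.0, and that of hypo positions from -3.5 to 20.0 around 10.5. All counts of bodies called hyper stayed within 1.5 times the value reported under every setting run. The counts that moved were those of start regions called hyper or hypo, which were 6, 1, 5, 6 and 1 in GSC, iPSC 1, iPSC 2, gPSC 1 and gPSC 2. With a q of at most 0.0001 they were 2, 0, 0, 1 and 0, with 1000 bp windows in place of positions 0 in all 5, and with 1 position sufficient for a call 14, 10, 16, 14 and 9. A difference of at least 50 points left 1 in GSC. Without positions inside another gene, iPSC 2 had 3 and gPSC 1 had 3, and with 5 positions needed iPSC 2 had 3. With 60% sufficient, iPSC 1 had 3 and gPSC 2 had 2. With the start taken from the RefSeq promoter windows, an alternative chosen after seeing the data, iPSC 1 had 2 and gPSC 2 had 2. Fewer or more positions able to make a call follow from these settings, and other causes were not tested.

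The difference between iPSC and gPSC lines in hypo body positions, 10.5, was -3.5 with a q of at most 0.0001 (the cause was not tested). Leaving out each line in turn gave -6.0 to 27.0 for hypo and -43.0 to 5.0 for hyper positions. With the line number as a replicate block, the differences were -19.0 for hyper and 10.5 for hypo positions, with an exact sign-flip p of 1 for each. The block changes no mean here. Same-numbered lines had correlations of deviations of -0.22 for hyper and -0.02 for hypo counts over members. A crossed block, chosen after seeing the data, gave the same differences. Depth is unknown, so missing positions cannot be read as unchanged.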
